A study of Mus musculus with 6 samples.

Results

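Glycolysis genes and hypoxia-inducible genes were examined in RNA sequencing libraries of peritoneal macrophages (PEMs). The set held 38 of the 15415 genes in the deposited table. It was chosen from earlier results of these data because Adm, Ankrd37 and Aldoa were lower in the knockout libraries, and the remaining genes were added for their known roles. It was split into 19 genes of glycolysis and its regulation, 17 other known targets of hypoxia-inducible factor (HIF) and the 2 HIF subunits Hif1a and Epas1. Of the 38 genes, 33 had a mean of at least 1 FPKM (fragments scaled by gene length and library total) in either group and entered the comparison with 9030 genes in all. Slc2a3, Pdk1, Ankrd37, Egln3 and Ak4 stayed below that level. Since these genes were selected on the contrast of knockout with control, their differences between the groups are given as a description and not as a test.

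The PEMs came from the peritoneal cavity of mice on the C57BL/6J background. The methods describe male mice of 6 to 8 weeks that received 6% starch into the cavity, with cells collected after 3 days. The 3 knockout libraries had the genotype LysM-Cre; Tim-4 fl/fl, with Cre expressed from the lysozyme gene Lyz2 in myeloid cells. The 3 control libraries had the genotype Tim-4 fl/fl without Cre, so that both groups carried the floxed allele, in which the loxP sites flank a region from intron 1 to intron 3. All 6 libraries carry lps as their treatment label, and the methods describe 1 µg/ml lipopolysaccharide for 3.5 hours without saying that the sequenced cells received it. Titles and genotype labels contradict each other about which libraries are knockout, and the titles were followed. For its error bars, the paper's figure with this sequencing gives 3 or more biological replicates in each group. It does not say whether the 3 sequenced libraries of a group came from separate animals. The p-values therefore measure the spread between these libraries alone, which may be technical.

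Glycolysis turns glucose into pyruvate in the cytosol, and macrophages activated with bacterial products rely on it heavily. HIF is a transcription factor made of an oxygen-regulated alpha subunit and the stable partner Arnt. When oxygen is present, prolyl hydroxylases mark the alpha subunit for destruction by Vhl, and when oxygen is short or macrophages are activated the subunit accumulates and binds a short core motif near its target genes. Those targets include most glycolytic enzymes, the glucose transporter Slc2a1, and genes of blood vessel growth, mitochondrial turnover and collagen modification.

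Between 36170767 and 42217558 whole reads per library were recovered from the FPKM values, and the 10 most abundant genes took 9.34% to 12.5% of them. Timd4, the gene of Tim-4, measured 0.333, 0.394 and 0.246 FPKM in the knockout libraries, in the order of their numbers 1 to 3 that is kept throughout, against 19.5, 12.0 and 1.19 FPKM in the controls. Control library 3 therefore lay far below the other control libraries in the targeted gene, although above every knockout library. Lyz2 measured 41.4, 4656 and 106 FPKM against 7090, 7171 and 8482 FPKM, and knockout library 2 lay far above the other knockout libraries. Listed markers of other cells were examined too, and a gene is said to be called where its limma p, adjusted over all 9030 tested genes, was under 0.05. The summed level of 7 listed B cell markers was 3.36 to 6.42 FPKM in the knockout and 33.4 to 130 FPKM in the control libraries (7 of 7 tested genes called lower in the knockout group), and that of 7 mast cell markers was 1.95 to 2.33 FPKM against 38.5 to 49.8 FPKM (5 of 5 called lower). The tested mast cell genes, and the B cell genes other than Cd79a, passed the filter only through their control means, so these counts are descriptions. Markers of large peritoneal macrophages summed to 504 to 601 FPKM against 706 to 856 FPKM (5 of 8 called lower). Cd9 and Thbs1 made up most of this sum, and Cd9 alone of the 8 had a log2 fold change above 0. The mean of Prg4 was 3.09 FPKM in the knockout and 71.4 FPKM in the control libraries, and that of Cd5l 8.41 and 78.3 FPKM. Neutrophil markers summed to 109 to 230 against 232 to 479 FPKM (2 of 6 called lower). S100a8, Mmp8 and Csf3r made up most of that sum. No other listed neutrophil marker exceeded 5.12 FPKM (S100a9), so whether neutrophils were present is not settled. Red blood cell markers summed to 3.95 to 12.4 against 12.7 to 26.7 FPKM (2 of 3 called lower). Mesothelial and fibroblast markers summed to 13.1 to 37.3 against 2.15 to 13.9 FPKM (0 of 5 called), small peritoneal macrophage markers to 305 to 687 against 498 to 1031 FPKM (1 of 6 called lower and 1 higher), T cell markers to 0.883 to 1.53 against 1.18 to 3.74 FPKM (0 of 1 called), and 4 eosinophil markers to at most 1.74 FPKM in any library (none tested). The 8 general macrophage markers were all present and summed to 2682 to 7277 FPKM against 9365 to 11148 FPKM, or to 2621 to 2876 against 2194 to 2665 FPKM without Lyz2 (1 of 8 called higher and none lower). Of them 3 had all knockout libraries below all control libraries (Csf1r, Cd14 and Lyz2) and 2 had them above. No listed marker of any of these types was at 0 in every library. The part of these cells in the differences below was not tested, and in bulk samples fewer cells of a type and less RNA per cell cannot be told apart.

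The promoters of the set were examined first, because the core of the hypoxia response element is what HIF targets are known to share. RefSeq promoter windows of 300 bases on GRCm38.p6, from 250 bases before to 50 bases after the start of the gene, were matched for 33 of the 38 genes. The letters ACGTG or GCGTG were searched on both strands (CACGT and CACGC are the same letters on the other strand, and CACGTG or CACGCGTG counted as 2 overlapping matches). A match was present for 31 of the 33 genes (93.9%), against 46.7% of all genes with such a window and 68.8% of the tested genes. A gene counted if any of its windows held a match, which favours genes with several windows. Counted by window, the shares were 80.4% for the set and 63.2% for the tested genes. All 14 matched genes of the other HIF targets had one, as did 16 of the 18 glycolysis genes, Gpi1 and Tpi1 being without. At least 2 matches were found for 25 genes (75.8%), against 39.6% of the tested genes. A match is a description of the letters and says nothing of binding in these cells.

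The following stretches of 60 bases upstream of the start, 5′ to 3′ on the strand of the gene, are shown for the 3 genes the set was built around, for the other genes past the threshold described below, and for Hk2 and Pfkfb3, which had higher values in the knockout libraries. Capitals mark the core motif.
Adm (chr7:110627562-110627621, plus strand): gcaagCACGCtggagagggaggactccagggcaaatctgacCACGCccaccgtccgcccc
Ankrd37 (chr8:45999951-46000010, minus strand): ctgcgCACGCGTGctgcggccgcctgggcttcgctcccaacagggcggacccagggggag
Aldoa (chr7:126799326-126799385, minus strand): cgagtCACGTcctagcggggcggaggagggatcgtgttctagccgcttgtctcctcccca
Slc2a1 (chr4:119108651-119108710, plus strand): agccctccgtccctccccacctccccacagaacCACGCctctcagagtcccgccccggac
Pgk1 (chrX:106186945-106187004, plus strand): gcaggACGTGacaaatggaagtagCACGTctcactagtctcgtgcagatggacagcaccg
Eno1 (chr4:150236473-150236532, plus strand): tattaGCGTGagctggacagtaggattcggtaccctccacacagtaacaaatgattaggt
P4ha2 (chr11:54100812-54100871, plus strand): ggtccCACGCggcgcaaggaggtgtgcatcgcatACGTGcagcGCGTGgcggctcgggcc
Hk2 (chr6:82774455-82774514, minus strand): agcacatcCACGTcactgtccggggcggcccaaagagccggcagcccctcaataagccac
Pfkfb3 (chr2:11502102-11502161, minus strand): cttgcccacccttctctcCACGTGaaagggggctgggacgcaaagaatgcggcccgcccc
These stretches were picked because they hold the motif, so its presence in genes with higher and with lower knockout values is no finding.

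In the comparison of knockout with control, 5 of the 33 tested genes of the set were called lower in the knockout group and 0 were called higher. These were the glucose transporter Slc2a1, the glycolytic enzymes Aldoa, Pgk1 and Eno1, and the collagen prolyl hydroxylase subunit P4ha2. Over all tested genes, 7.31% were called, 4.74% lower and 2.57% higher in the knockout group, and since the set was selected on this contrast nothing is read from its count beside this share. The adjusted p-values of the 5 genes lay between 0.0110 and 0.0491 (limma, Benjamini-Hochberg over 9030 genes). With the replicate number as a block, 9 genes were called instead, 7 lower and 2 higher, among them 4 of these 5, and after rescaling by the median of ratios 3 were called, Slc2a1 and P4ha2 lower and Hilpda higher. The count rested on single libraries, with 0 genes of the set called without knockout library 1, without knockout library 2 or without control library 2, and 8 called without knockout library 3.

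**Figure D1:**
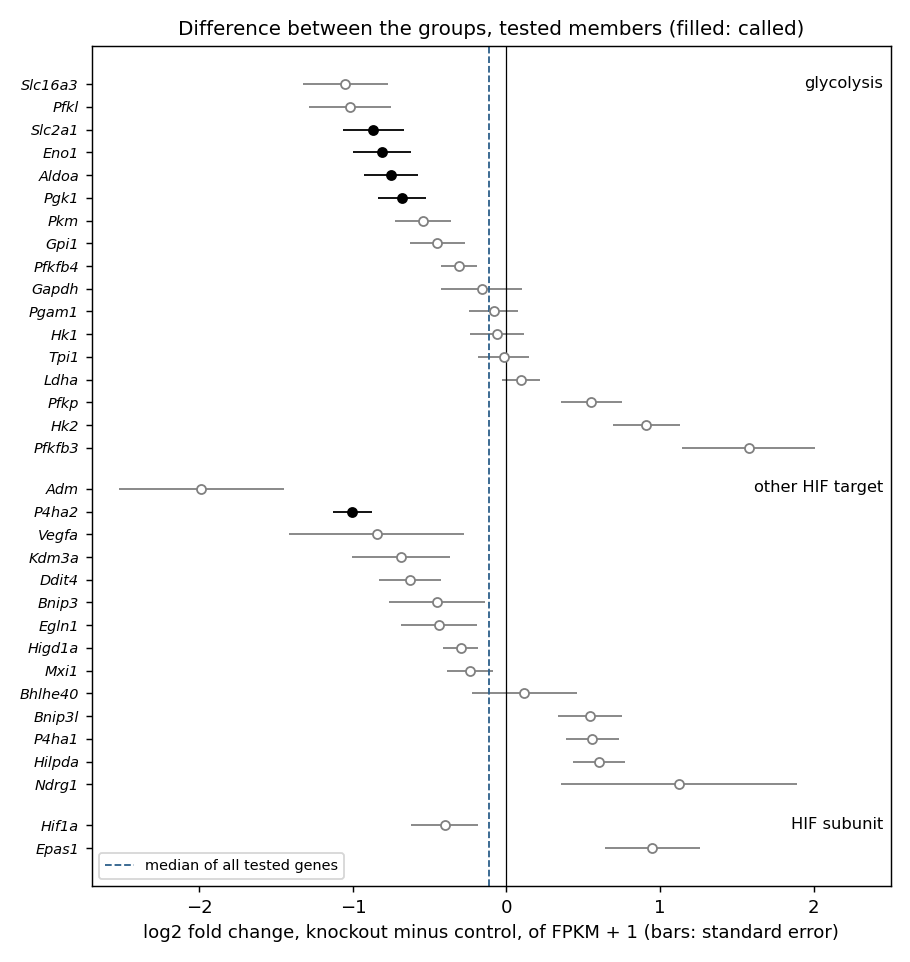
Difference between the groups for the 33 tested genes, as the log2 fold change of FPKM + 1 (knockout minus control, x axis) with its standard error as the bar. Filled points are the 5 genes called, all left of 0, while Pfkfb3, Hk2, Pfkp, Ndrg1 and Epas1 lie to the right, and the dashed line is the median of all tested genes at -0.11.

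Glucose enters the cell through the transporters Slc2a1 (GLUT1) and Slc2a3 (GLUT3). Slc2a1 measured 31.0, 26.2 and 31.0 FPKM in the knockout and 44.2, 50.1 and 72.1 FPKM in the control libraries. All knockout libraries lay below all control libraries, the control mean was 1.89 times the knockout mean, and the log2 fold change of Slc2a1 was -0.87 (SE 0.20). Slc2a3 was near the limit of detection, at 0.073, 0.101 and 0.0917 FPKM in the knockout and 0.207, 0.258 and 0.174 FPKM in the control libraries, from 18 to 59 reads. The first transporter exceeded the second in every library, by 194 to 425 times.

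Hexokinases trap glucose by phosphorylating it, and of the 2 in the set Hk2 had higher values in the knockout libraries while Hk1 had overlapping groups. Hk2, the inducible form, measured 68.5, 65.5 and 43.4 FPKM in the knockout and 37.5, 28.3 and 26.4 FPKM in the control libraries, with a log2 fold change of 0.91 (SE 0.22) that did not pass the threshold without the replicate block and did with it (limma adjusted p = 0.0262). Its groups did not overlap, and its lowest knockout library was library 3. Hk1, the widely expressed form, measured 19.3, 17.8 and 14.5 FPKM in the knockout and 21.7, 15.0 and 17.8 FPKM in the control libraries, so the groups overlapped, and the sign of its difference (-0.06, SE 0.18) turned when the libraries were rescaled. The level of Hk2 was above that of Hk1 in all 6 libraries, by 1.49 to 3.68 times.

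At the phosphofructokinase step, the committed step of the pathway, the isoforms stood on opposite sides. Pfkl, the liver type subunit, measured 4.98, 4.95 and 10.8 FPKM in the knockout and 14.5, 13.2 and 14.8 FPKM in the control libraries (log2 fold change -1.02, SE 0.27), and knockout library 3 was closer to the control libraries than to the other knockout libraries. Pfkp, the platelet type subunit, measured 70.9, 66.9 and 65.3 FPKM against 36.9, 41.8 and 62.3 FPKM (0.55, SE 0.20), with control library 3 just under the knockout libraries. Neither passed the threshold, but Pfkl did with the replicate block (limma adjusted p = 0.0422). Pfkp exceeded Pfkl in every library, by 2.53 to 14.2 times.

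Pfkfb3 and Pfkfb4 encode enzymes that make and break down the fructose bisphosphate that activates phosphofructokinase. Pfkfb3 had the largest difference upward in the set, with 46.2, 46.0 and 17.4 FPKM in the knockout and 15.8, 11.1 and 6.58 FPKM in the control libraries (log2 fold change 1.58, SE 0.43, not called, but called with the replicate block at a limma adjusted p of 0.0142). Knockout library 3 was only slightly above control library 1, while the other knockout libraries stood clear. Pfkfb4 was low and lay on the opposite side, at 1.56, 1.67 and 1.84 FPKM in the knockout and 2.53, 2.31 and 2.14 FPKM in the control libraries (-0.31, SE 0.12, not called). Pfkfb3 exceeded Pfkfb4 in every library, by 3.07 to 29.6 times.

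Downstream of this step the abundant enzymes were lower in the knockout libraries or close to the control level. Aldoa, the aldolase that splits the phosphorylated sugar, was the most abundant gene of the set, with 251, 245 and 342 FPKM in the knockout and 466, 411 and 528 FPKM in the control libraries. Its groups did not overlap, its knockout mean was 280 ± 54.3 FPKM and its control mean 468 ± 58.8 FPKM (SD, n = 3), and its log2 fold change was -0.75 (SE 0.18). Pgk1, the phosphoglycerate kinase of the first ATP-forming step, measured 114, 135 and 161 FPKM against 230, 219 and 203 FPKM (-0.68, SE 0.16), and its call was lost with the replicate block (limma adjusted p = 0.0649). Eno1, the enolase before pyruvate kinase, measured 148, 147 and 227 FPKM against 300, 284 and 316 FPKM (-0.81, SE 0.19). All 3 of these enzymes had non-overlapping groups, and all 3 had their highest knockout value in library 3. The table also lists Eno1b, a near copy of Eno1, at 1.24 to 3.23 FPKM, and pseudogenes of Gapdh, Tpi1, Ldha and Pgam1 are common in the mouse genome, so reads of these genes could have been divided by the counting.

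Pkm, the pyruvate kinase, ranged from 122 to 161 FPKM in the knockout and from 170 to 245 FPKM in the control libraries (-0.54, SE 0.18, not called), without overlap. Gpi1, the isomerase of the second step, ranged from 68.4 to 102 FPKM against 98.4 to 123 FPKM (-0.45, SE 0.18, not called). Tpi1, Gapdh, Pgam1 and Ldha, which act between aldolase and lactate, had overlapping groups, with log2 fold changes of -0.02, -0.16, -0.08 and 0.09. The direction of Tpi1 and Pgam1 turned when the libraries were rescaled by the median of ratios. The log2 fold changes of the enzymes from aldolase to lactate thus ran from -0.81 for Eno1 to 0.09 for Ldha. Slc16a3 (MCT4), the exporter of lactate, measured 4.05, 3.40 and 6.94 FPKM in the knockout and 8.54, 9.41 and 14.8 FPKM in the control libraries (-1.05, SE 0.28, not called, but called with the replicate block at a limma adjusted p of 0.0161), again without overlap and with the highest knockout value in library 3. Pdk1, which holds back pyruvate dehydrogenase, was below the filter, at 0.410 to 0.932 FPKM in the knockout and 0.534 to 0.709 FPKM in the control libraries.

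**Figure D2:**
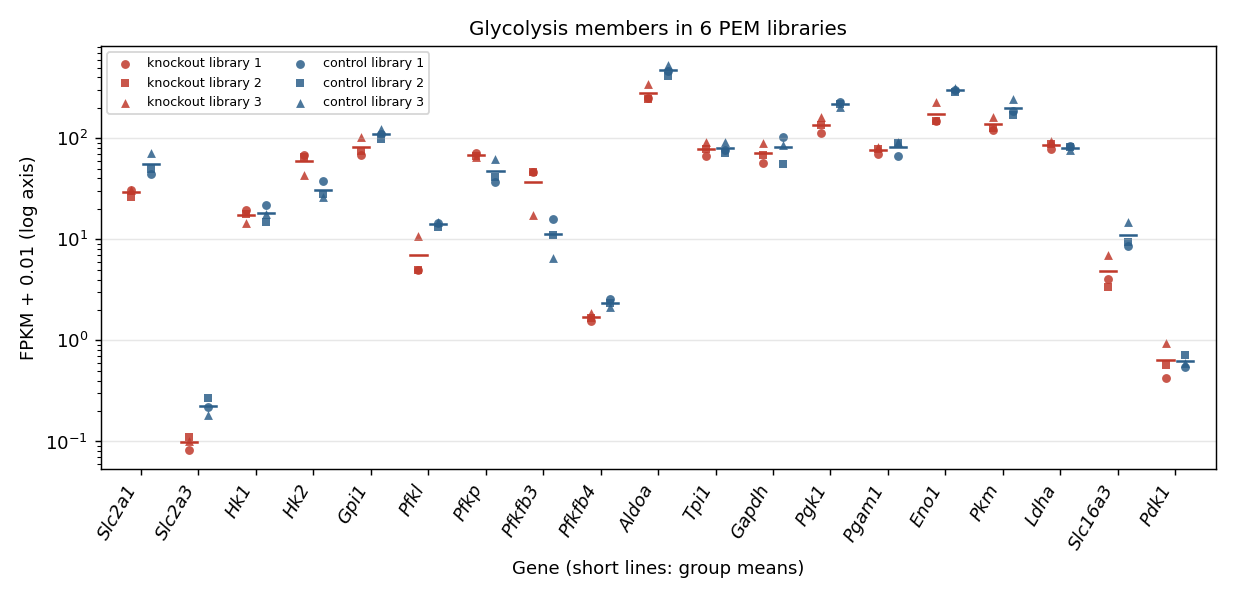
FPKM + 0.01 of the 19 glycolysis genes (log axis) in each of the 6 libraries, with red for knockout, blue for control, a symbol for each library number and a short line at the group mean. The knockout points of Aldoa, Pgk1, Eno1 and Slc2a1 lie below all control points, those of Hk2 and Pfkfb3 lie above, and knockout library 3 (triangle) lies nearest to the control points in Pfkl, Eno1 and Slc16a3.

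Of the 17 tested glycolysis genes, 4 were called lower and 0 higher, 13 had a log2 fold change below 0, and the median was -0.31 where the median of all tested genes was -0.11. Knockout libraries lay below all control libraries in 8 of the 17 genes and above them in 3 (Hk2, Pfkp and Pfkfb3), while 23.0% and 11.1% of all tested genes had groups that did not overlap in these directions. Rescaled by the median of ratios, all tested genes had a median of 0.016 and that of the glycolysis genes to -0.21. In this rescaled comparison Slc2a1 was still called, while Aldoa at -0.61, Pgk1 at -0.54 and Eno1 at -0.66 were not (limma adjusted p = 0.0639, 0.0886 and 0.0613).

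Knockout library 3 often held the highest of the 3 knockout values, a pattern picked out after the values had been seen and given without a test. It did so in 12 of the 17 tested glycolysis genes (70.6%) and in 59.5% of all tested genes. Most tested genes shared the pattern, so it is not read as a trait of the glycolysis genes. In Hk2, Pfkfb3 and Pfkp, whose knockout libraries lay above all control libraries, it held the lowest knockout value instead. In Ldha, also above 0 but with overlap, it held the highest and lay farthest from the control libraries. Without knockout library 3, 8 genes of the set were called, namely Aldoa, Eno1, P4ha2, Pfkl, Pgk1 and Slc16a3 lower and Hk2 and Pfkfb3 higher, while Slc2a1 was no longer called. Over all genes 528 of 9024 were called there, and the count of 8 is no separate support for the pattern.

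Among the tested other HIF targets, Adm and P4ha2 had the largest differences downward, and the set had been chosen in part on Adm. Adm, which encodes the vessel-dilating peptide adrenomedullin, measured 0.444, 0.374 and 0.228 FPKM in the knockout libraries (13 to 26 reads) and 9.81, 5.69 and 1.09 FPKM in the control libraries (55 to 540 reads). The groups did not overlap, but the control values spanned 9.0 times from control library 3 to control library 1. The control mean was 15.9 times the knockout mean, and the log2 fold change was -1.99 (SE 0.54), which did not pass the threshold without the replicate block and did with it (limma adjusted p = 0.0367). Adm entered the comparison only through its control mean. Adm shared with Timd4 and with the B cell markers a much lower value in control library 3 than in control library 1, and the part of these in its difference was not tested.

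Ankrd37, an ankyrin repeat protein known mainly as a hypoxia target, was barely detected. It measured 0, 0.0347 and 0.119 FPKM in the knockout libraries, from 0, 3 and 10 reads, and 0.0991, 0.377 and 0.730 FPKM in the control libraries, from 8, 30 and 54 reads. The count of 0 allows up to 3 reads, or 0.0349 FPKM, by counting error alone. The groups overlapped, since knockout library 3 was above control library 1. Ankrd37 was therefore lower in the mean of the knockout libraries only at a level at which it was left untested.

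P4ha1 and P4ha2 are alternative catalytic subunits of the enzyme that hydroxylates proline in collagen, and they lay on opposite sides. P4ha2 measured 0.345, 0.545 and 0.458 FPKM in the knockout and 2.15, 1.91 and 1.67 FPKM in the control libraries, from 34 to 54 and from 142 to 199 reads. Its control mean was 4.25 times its knockout mean, its log2 fold change was -1.0 (SE 0.13), and both groups were narrow beside the gap between them. P4ha1 was far more abundant, with 29.4, 34.0 and 23.1 FPKM in the knockout and 20.2, 20.4 and 16.6 FPKM in the control libraries (0.56, SE 0.17, not called). P4ha1 exceeded P4ha2 by 9.42 to 85.1 times.

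Bnip3 and Bnip3l, which mark mitochondria for removal by autophagy, differed from each other in the same manner. Bnip3 measured 1.98, 2.35 and 3.34 FPKM in the knockout and 1.96, 4.50 and 5.79 FPKM in the control libraries (-0.45, SE 0.31), with overlap. Bnip3l measured 18.1, 24.2 and 22.0 FPKM against 10.5, 15.9 and 17.4 FPKM (0.54, SE 0.21), without overlap, and neither was called. A near copy listed as Bnip3l-ps measured 2.49 to 6.57 FPKM, so the level of Bnip3l is uncertain to that extent. Bnip3l exceeded Bnip3 by 3.0 to 10.3 times.

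The prolyl hydroxylases that mark HIF for destruction are themselves HIF targets. Egln1 (PHD2) measured 2.01, 3.004 and 3.94 FPKM in the knockout and 3.16, 4.12 and 5.95 FPKM in the control libraries (-0.44, SE 0.25, not called). Egln3 (PHD3) measured 0.263, 0.439 and 0.326 FPKM against 0.445, 0.543 and 0.854 FPKM and was below the filter. The knockout means of both lay under the control means, with overlap for Egln1 and none for Egln3. Egln1 exceeded Egln3 by 6.84 to 12.1 times.

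Of the remaining targets, Hilpda, a lipid droplet protein that restrains lipolysis, had the highest mean over the 6 libraries, with 60.6 to 70.6 FPKM in the knockout and 34.0 to 49.5 FPKM in the control libraries (0.60, SE 0.17, not called, but called higher after rescaling, at 0.75 and a limma adjusted p of 0.0415), without overlap. Ddit4, an inhibitor of mTOR signalling, ranged from 2.05 to 3.57 FPKM against 4.24 to 6.05 FPKM (-0.63, SE 0.20), and Higd1a, a mitochondrial protein, from 8.13 to 8.62 FPKM against 9.84 to 10.9 FPKM (-0.30, SE 0.12), both without overlap and not called. Vegfa, the vascular growth factor, ranged from 3.31 to 8.19 FPKM against 3.83 to 23.98 FPKM (-0.85, SE 0.57), and the histone demethylase Kdm3a from 4.49 to 5.82 FPKM against 5.47 to 15.3 FPKM (-0.69, SE 0.32). In both the spread of the control libraries was wider than the gap between the means. Mxi1, an antagonist of Myc, differed by -0.24 (SE 0.15), the transcription factor Bhlhe40 by 0.12 (SE 0.34), and Ndrg1, a stress-responsive protein, by 1.12 (SE 0.77), all with overlap and not called. Ak4, a mitochondrial adenylate kinase, was below the filter, at 0.653 to 1.13 FPKM against 0.773 to 1.02 FPKM.

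**Figure D3:**
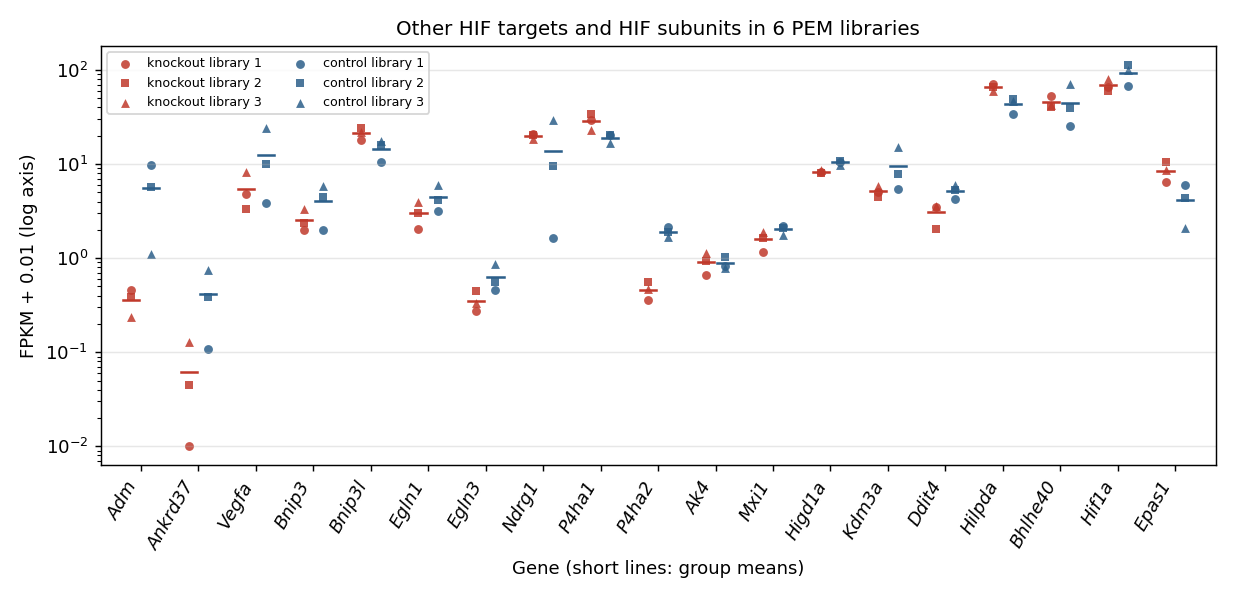
FPKM + 0.01 of the 17 other HIF targets and of Hif1a and Epas1 (log axis) in each library, with red for knockout, blue for control, a symbol for each library number and a short line at the group mean. Adm and P4ha2 show knockout points below all control points, Hilpda, P4ha1 and Bnip3l show them above, and the control points of Adm, Vegfa and Ndrg1 are widely spread.

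Of the 14 tested HIF targets outside glycolysis, 1 was called lower (P4ha2) and 0 higher. P4ha2 reached the filter only through its control mean, in a set selected on this contrast, so its call is a description and no test of the targets. Their median log2 fold change was -0.37, and -0.24 after the rescaling. The knockout libraries lay below all control libraries in 4 genes (Adm, P4ha2, Higd1a and Ddit4), above them in 3 (Bnip3l, P4ha1 and Hilpda), and overlapped them in 7, beside 23.0% of all tested genes with separate groups in the first direction and 11.1% in the second. Restricting the comparison to genes with a mean of at least 5 FPKM moved this median to -0.0905, with Adm kept and P4ha2 left out by the higher limit.

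The control libraries differed among themselves in these targets, a pattern seen in the values first and given without a test. In 10 of the 17 targets (58.8%) control library 1 held the lowest and control library 3 the highest control value, namely Ankrd37, Vegfa, Bnip3, Bnip3l, Egln1, Egln3, Ndrg1, Kdm3a, Ddit4 and Bhlhe40. Ndrg1 was the widest of them, at 1.65, 9.60 and 29.6 FPKM in control libraries 1 to 3, a span of 18.0 times, while its knockout libraries stayed between 18.3 and 20.7 FPKM. Vegfa spanned 6.26 times in the control libraries, with 3.83, 10.1 and 23.98 FPKM. The same order was found in 34.5% of all tested genes, in 57.1% of the 14 tested targets and in 4 of the 19 glycolysis genes. In the lists outside the set it was found in 38.1% of 21 tested further HIF targets and in 46.2% of 13 tested further glycolysis genes, so the lists do not divide into HIF targets with this order and glycolysis genes without it. Of 11 genes induced by lipopolysaccharide, such as the cytokine genes Il1b and Tnf, 0 had this order and 6 had the opposite one, with the highest control value in library 1 and the lowest in library 3, an order held by 15.7% of all tested genes. Of the targets, Adm, P4ha2 and Mxi1 had this opposite order. On the log2 scale the SD of the control libraries was larger than that of the knockout libraries in 11 of the 14 tested targets, in 7 of the 17 glycolysis genes and in 73.6% of all tested genes. Without control library 3, 6 genes of the set were called (Adm, Ndrg1, P4ha2, Pfkp, Pgk1 and Slc2a1), with Ndrg1 and Pfkp among them as higher, beside 1333 of 9006 tested genes in all. Without control library 1, 4 were called, Hk2 and Epas1 as higher and P4ha2 and Slc2a1 as lower, beside 788 of 9077 tested genes in all.

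**Figure D4:**
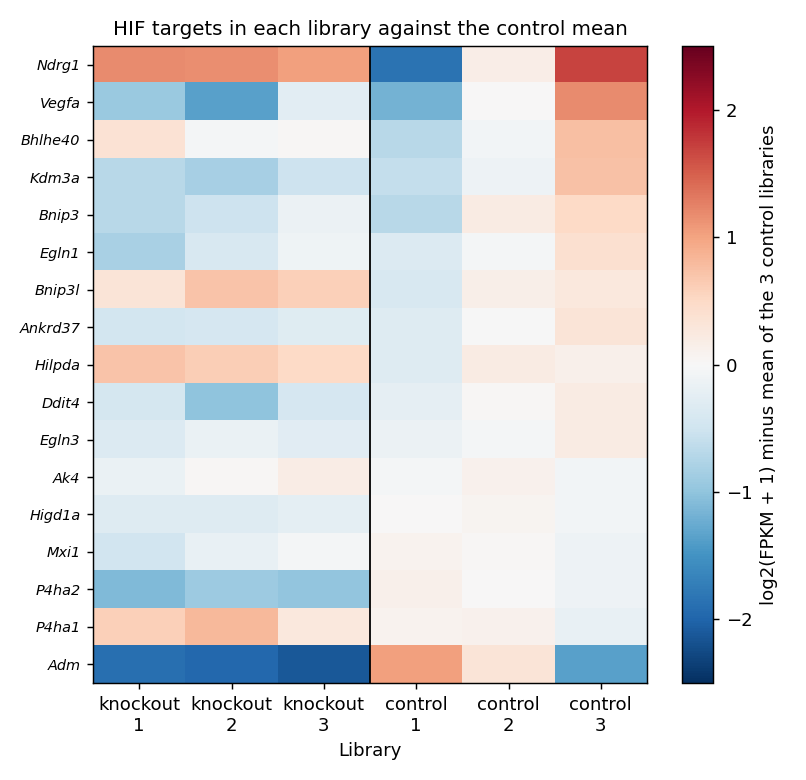
Level of the 17 other HIF targets in each library as log2(FPKM + 1) minus the mean of the 3 control libraries, with red above and blue below that mean and the black line between the groups. In 10 genes control library 1 is the lowest and control library 3 the highest control value, most widely in Ndrg1 and Vegfa, whereas Adm, P4ha2 and Mxi1 run the other way.

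The 2 HIF subunits differed in level and in direction. Hif1a, the subunit that macrophages induce on activation, measured 66.6, 60.2 and 80.4 FPKM in the knockout and 67.1, 113 and 99.1 FPKM in the control libraries (-0.40, SE 0.22, not called), and control library 1 lay among the knockout libraries. Epas1, which encodes the related subunit HIF-2α, measured 6.45, 10.5 and 8.64 FPKM in the knockout and 5.96, 4.33 and 2.08 FPKM in the control libraries (0.95, SE 0.31, not called), without overlap. Hif1a exceeded Epas1 in every library, by 5.76 to 47.7 times, and the widest ratio belonged to control library 3.

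The levels of related genes against each other had not been used to choose the set and were tested over the 6 libraries. In each of the 8 pairs 1 gene was the higher in 6 of 6 libraries, namely Slc2a1 over Slc2a3, Hk2 over Hk1, Pfkp over Pfkl, Pfkfb3 over Pfkfb4, Bnip3l over Bnip3, Egln1 over Egln3, P4ha1 over P4ha2 and Hif1a over Epas1. The two-sided exact sign-flip permutation p was 0.03125 for each pair, the smallest that 6 libraries can give, and 0.03125 after adjustment over the 8 pairs. This takes the 6 libraries as independent. With the signs flipped together for the libraries of a replicate number, as a pairing by number would ask, the exact permutation p was 0.25 for each pair, the smallest that 3 such sets can give, so that 0 pairs could pass. On the scale of log2(FPKM + 1) the mean differences ran from 1.22 (SD 0.55) for Hk2 over Hk1 to 5.15 (SD 0.47) for Slc2a1 over Slc2a3. As a description, the ratio of the higher to the lower gene was larger in every knockout than in every control library for 5 pairs (Hk2, Pfkp, Pfkfb3, Bnip3l and P4ha1 over their relatives), smaller for Hif1a over Epas1, and overlapping for 2. These ratios restate the group differences of single genes given above. No share over other gene pairs was taken, so nothing is read from the count.

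Genes of neighbouring pathways were listed by their known roles, with earlier results of these data known. Of the 13 tested further glycolysis genes, 1 was called higher and 1 lower, with a median log2 fold change of 0.13. Hk3, the hexokinase typical of myeloid cells, rose, with 204, 217 and 139 FPKM in the knockout and 96.7, 88.0 and 97.2 FPKM in the control libraries (0.96, SE 0.19, limma adjusted p = 0.0297). Pfkm, the muscle type phosphofructokinase, was called lower, with 1.15, 0.599 and 1.13 FPKM against 3.37, 2.76 and 1.85 FPKM (-0.89, SE 0.20, limma adjusted p = 0.0435). It passed the filter only through its control mean, and it was not called without the filter, after rescaling, or in 5 of the 6 comparisons with 1 library left out, the exception being without control library 3. Hk2 and Hk3 thus both had higher and non-overlapping values in the knockout libraries, of which only Hk3 passed the threshold. The lactate dehydrogenase subunit Ldhb, the transporter of lactate and pyruvate Slc16a1 and the glucose transporter Slc2a6 did not pass, at 0.93 (SE 0.25), 0.22 (SE 0.21) and 0.18 (SE 0.15), although Ldhb was called higher with the replicate block and after rescaling. Slc2a6 measured 108 to 155 FPKM over the 6 libraries, above Slc2a1 in each of them.

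The pentose phosphate pathway, which branches from glucose phosphate and supplies NADPH, had 3 of 9 tested genes called lower and 0 higher, with a median of -0.37. Pgd, the phosphogluconate dehydrogenase of its oxidative arm, measured 244, 184 and 297 FPKM in the knockout and 549, 486 and 550 FPKM in the control libraries (-1.15, SE 0.19, limma adjusted p = 0.0196). H6pd, which runs the first steps inside the endoplasmic reticulum, measured 2.53, 2.91 and 5.09 FPKM against 7.58, 7.65 and 10.03 FPKM (-1.09, SE 0.23, limma adjusted p = 0.0347). Taldo1, the transaldolase of the non-oxidative arm, measured 196, 170 and 252 FPKM against 319, 360 and 460 FPKM (-0.88, SE 0.20, limma adjusted p = 0.0443). G6pdx, the entry enzyme, differed by -0.37 (SE 0.14) and did not pass the threshold, although its groups did not overlap. In all 4 genes the highest knockout value was that of library 3, as in Aldoa, Pgk1 and Eno1.

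Genes of pyruvate entry into mitochondria showed no call in 10 tested genes, with a median of -0.09, 0 genes at an unadjusted p under 0.05 and 0 genes by voom on the recovered reads. The machinery that controls HIF had 0 of 13 tested genes called in limma, 0 at an unadjusted p under 0.05 and 0 by voom, with a median of -0.17. Vhl measured 2.98 to 3.83 FPKM in the knockout and 3.77 to 5.01 FPKM in the control libraries (-0.28, SE 0.15). Arnt differed by -0.16 (SE 0.16), the asparagine hydroxylase Hif1an by -0.03 (SE 0.12) and the prolyl hydroxylase Egln2 by -0.15 (SE 0.15), all with overlap.

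Of 21 tested further HIF targets, 2 were called lower and 0 higher, with a median of -0.20. With the replicate block the chemokine receptor Cxcr4 (-0.95) was also called lower and Edn1 (2.05), which encodes an endothelin, higher. Gbe1, the branching enzyme of glycogen synthesis, measured 8.70, 9.46 and 12.3 FPKM in the knockout and 44.7, 47.0 and 28.8 FPKM in the control libraries (-1.86, SE 0.22, limma adjusted p = 0.00979). Hmox1, the heme oxygenase, which is also a target of the oxidative stress response, measured 391.9, 327 and 717 FPKM against 1606, 1345 and 2039 FPKM (-1.86, SE 0.30, limma adjusted p = 0.0196). In neither gene did the groups overlap. Of the 11 tested genes induced by lipopolysaccharide, 2 were called lower, the neutrophil chemoattractant genes Cxcl1 and Cxcl2, and 0 higher. Their median was -0.07, with 6 genes below 0 and 5 above. The largest difference of this list was upward, in Nos2 (1.96, SE 0.51, not called), whose groups did not overlap. Cxcl1 measured 958, 1152 and 1544 FPKM in the knockout and 2935, 3227 and 2231 FPKM in the control libraries (-1.21), and Cxcl2 measured 4361, 3345 and 4593 FPKM against 7240.5, 8588 and 8460 FPKM (-0.99). All 7 of the called genes of the 5 metabolic and HIF lists were also called by voom and with the replicate block, and 0 of them without knockout library 1 or without control library 2, 1 (Gbe1) without knockout library 2.

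**Figure D5:**
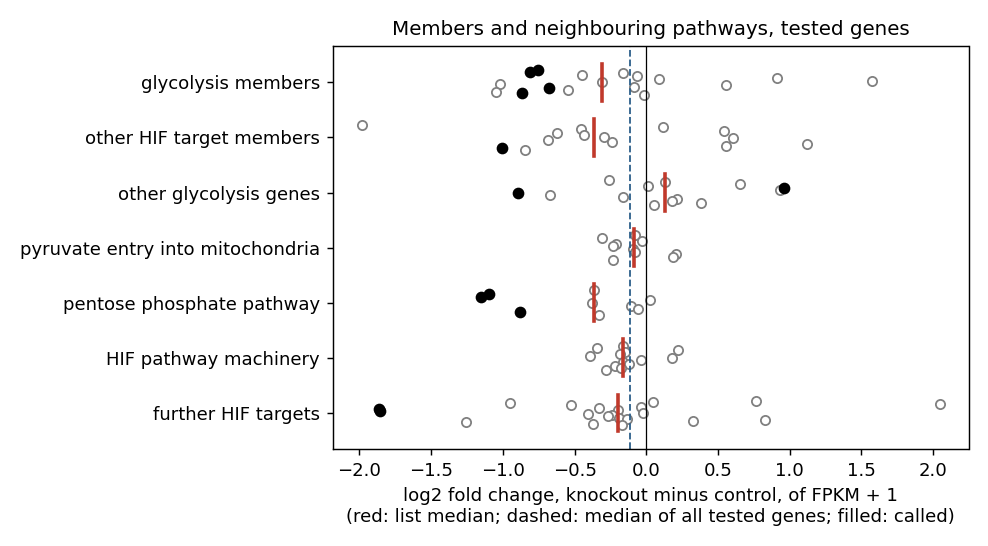
Log2 fold change (knockout minus control) of FPKM + 1 for the tested genes of the glycolysis and other HIF target sets and of 5 neighbouring lists, 1 point per gene, filled where called, with a red line at the median of the list and a dashed line at the median of all tested genes. Called genes lie at -0.68 or below, with the exception of Hk3 at 0.96, and the lists of pyruvate entry and HIF machinery hold none.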

How the data were processed

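RNA of PEMs was sequenced in 6 libraries, 3 per group, which were assigned to groups by title. The authors deposited 1 table of the comparison with FPKM per gene and library, that is, counted reads scaled by gene length and library total. The authors also deposited signal columns with the mean per group of read counts divided by DESeq2 size factors, and columns with their own fold change, p-value and q-value, which were not used. The processing notes name mm9 as the genome build, and the aligner, the counter and the annotation are not given in the sources used here. Promoter sequences are from RefSeq on GRCm38.p6, and no coordinates of mm9 were used.

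Whole reads were recovered from the FPKM values and the group means, with 100% of values whole within 0.05. They give the depth, whose precision covers counting error only. A total of 0 per-sample columns were left unmapped. A count model had been planned in case the table held counts, and since it holds FPKM, limma 3.58.1 under R 4.3.3 (lmFit, then eBayes with trend) was applied to log2(FPKM + 1) of the 9030 genes that averaged at least 1 FPKM in either group. Benjamini-Hochberg adjustment was used with a threshold of 0.05, and a gene below it is said to be called. Fold changes on this scale understate the change of low genes. The smallest p that an exact two-sided permutation of 3 against 3 libraries allows for a single gene is 0.1. The script was tested on simulated data.

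The genes of the set and all lists were chosen with earlier results of these data known. Values in every library are given for Adm, Ankrd37, Aldoa, every called gene of the set, Hif1a, Epas1 and the genes of the 8 pairs. Of the 5 metabolic and HIF lists and the lipopolysaccharide list, called genes are named with their values, and Vhl, Arnt, Hif1an, Egln2, Hk3, Ldhb, Slc16a1, G6pdx and Slc2a6 are named whether or not they passed. Other genes are given by range or value, marker lists (against the rule, which would name their called genes) by counts and summed levels, and Timd4 and Lyz2 check the labels.

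The replicate numbers were checked for pairing. Deviations from the group means had correlations between same-numbered libraries of 0.109, 0.1095 and 0.304, and the correlations of other pairs lay between -0.332 and 0.291. All same-number values exceed 0.1, so a fit with the number as a block was run for a possible pairing. Knockout library 2 with control library 1 reached 0.291, above the same-number values of 0.109 and 0.1095, so the check does not establish the pairing. Any pairing rests on this check alone, since no source says what the numbers share. The alternatives were 2 other filters, a pseudocount of 0.1, the block, a rescaling by the median of ratios, voom on the recovered reads, and leaving out each library.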

Additional observations from a re-analysis of the deposited data

How the results depend on the processing

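In all, 660 genes were called as reported, 436 with a mean of at least 5 FPKM required (5779 genes tested), 446 without a filter, 692 with a pseudocount of 0.1, 855 with the replicate block, 664 after rescaling (342 higher and 322 lower, against 232 and 428), 650 with voom, and 8 to 1333 with 1 library left out. The lowest count was without control library 2 and the highest without control library 3, and 30 and 63 were called without knockout libraries 1 and 2. The cause of these differences was not tested.

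Of the glycolysis and hypoxia genes, 5 were called as reported, 1 without a filter, 3 with at least 5 FPKM, 3 after rescaling (2 lower, 1 higher), 3 with voom, 9 with the replicate block, and 0 to 8 with 1 library left out. Adm was called with a pseudocount of 0.1, with the block and without control library 3. The block changed the calls of Adm, Hk2, Pfkfb3, Pfkl, Slc16a3 and Pgk1. P4ha2 was called in every setting but the filter of 5 FPKM, which removes it, and the removal of knockout library 1, knockout library 2 or control library 2. The neighbouring lists had 7 genes called (6 lower, 1 higher), 10 with the block (7 lower, 3 higher, adding Cxcr4, Edn1 and Ldhb), 3 without a filter, and 0 to 14 with 1 library left out.

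The median of the glycolysis genes was -0.16 without a filter, -0.44 with a pseudocount of 0.1, -0.45 with voom, and -0.42 to -0.26 with 1 library left out. That of the other HIF targets was -0.0905 with at least 5 FPKM, and -0.47 to -0.25 with 1 library left out. Signs turned in Hk1, Tpi1, Gapdh, Pgam1 and Bhlhe40. After rescaling, Hk1 was at 0.0751, Tpi1 at 0.1265 and Pgam1 at 0.0626. With 1 library left out, Hk1 lay between -0.1863 and 0.0657 (above 0 without knockout library 3 or control library 1), Tpi1 between -0.1306 and 0.0901 (above 0 without knockout library 1 or control library 3), Gapdh between -0.4163 and 0.0327 (above 0 without control library 1) and Bhlhe40 between -0.2294 and 0.4939 (below 0 without knockout library 1 or control library 1).

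Flipping the paired levels by replicate number (replicate block), an alternative chosen after seeing the data, gave 0 of 8 pairs, since 3 sets cannot give a p below 0.25. With 5 libraries the smallest p of the paired levels is 0.0625, so the pairs called number 0 to 0 whichever library is left out, which says nothing of their stability. Depth limits Ankrd37, Slc2a3 and Egln3, with fewer than 100 reads in each library.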
